A study of Mus musculus with 46 samples.

Results

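Cytochrome c and the nuclear-encoded subunits of cytochrome c oxidase were followed through RNA libraries of early mouse embryos with and without Rbbp5. Rbbp5 is a core subunit of the complexes that methylate histone H3 at lysine 4. The genes are the 8 with the names Cycs, Cyct, Cox5b, Cox6b1, Cox6b2, Cox6c, Cox7b and Cox8a in the deposited expression table, of 7182 genes used. Wild-type (WT) and Rbbp5 knockout (KO) embryos gave 7 and 7 single inner cell masses (ICM) at embryonic day 3.5 (E3.5), and 3 and 3 single epiblasts at E5.5. At E4.5 there were 7 WT and 3 KO single epiblast cells, and 1 WT and 2 KO single primitive endoderm cells. The knockout was made in zygotes, either with Cas9 mRNA and guide RNA in wild-type zygotes or with Cre mRNA in Rbbp5 flox/flox zygotes, and the labels do not say which made a given library. Edited zygotes can be mosaic, and the labels do not say whether the WT embryos were injected. The ICM and the E4.5 tissues were isolated by immunosurgery and the E5.5 epiblast by dissection from the uterus.

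Cytochrome c is a small haem protein of the mitochondrial intermembrane space that carries electrons from complex III to cytochrome c oxidase, complex IV, which hands them to oxygen. Released into the cytosol, the same protein binds Apaf1 and starts caspase activation. The catalytic core of the oxidase is encoded by mitochondrial DNA, and small nuclear-encoded subunits surround it. Both proteins have a pair of gene forms: Cycs and Cox6b1 are the somatic forms, and Cyct and Cox6b2 are the forms best known from testis. Cox6b1 and Cox6b2 sit on the intermembrane side where cytochrome c docks. Cox5b is the zinc-binding subunit on the matrix side, and Cox6c, Cox7b and Cox8a each span the inner membrane.

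The promoters of the somatic and testis forms are shown because the results turn on these pairs. Of the 8 genes, 7, all but Cox6c, matched an entry of the RefSeq promoter table (GRCm38.p6), which holds 300 bases for each gene, 250 before and 50 after the start. Each is written along its gene. Capitals mark matches, on either strand, to 7 short motifs, and the letters of the motifs were chosen after the promoters had been seen. All 4 genes lie on the minus strand. The Cycs window is at chr6:50566520-50566819, the Cyct window at chr2:76360404-76360703, the Cox6b1 window at chr7:30626065-30626364 and the Cox6b2 window at chr7:4753045-4753344.
Cycs: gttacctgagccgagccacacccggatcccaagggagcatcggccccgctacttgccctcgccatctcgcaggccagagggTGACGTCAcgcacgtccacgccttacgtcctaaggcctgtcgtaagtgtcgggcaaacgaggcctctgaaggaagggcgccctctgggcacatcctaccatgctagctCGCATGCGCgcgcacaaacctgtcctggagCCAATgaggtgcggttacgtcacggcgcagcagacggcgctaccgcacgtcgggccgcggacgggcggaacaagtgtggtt
Cyct: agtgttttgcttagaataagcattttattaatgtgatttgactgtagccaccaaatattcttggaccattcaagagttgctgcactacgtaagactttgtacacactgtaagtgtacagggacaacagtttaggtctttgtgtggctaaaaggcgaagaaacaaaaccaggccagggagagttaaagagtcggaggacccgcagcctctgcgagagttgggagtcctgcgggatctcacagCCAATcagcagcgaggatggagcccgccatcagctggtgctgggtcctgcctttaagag
Cox6b1: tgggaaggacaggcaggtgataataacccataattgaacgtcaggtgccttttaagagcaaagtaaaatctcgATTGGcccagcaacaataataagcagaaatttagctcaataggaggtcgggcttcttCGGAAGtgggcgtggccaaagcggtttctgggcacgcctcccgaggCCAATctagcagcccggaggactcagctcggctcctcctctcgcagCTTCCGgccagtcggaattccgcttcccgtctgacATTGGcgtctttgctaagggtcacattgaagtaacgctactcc
Cox6b2: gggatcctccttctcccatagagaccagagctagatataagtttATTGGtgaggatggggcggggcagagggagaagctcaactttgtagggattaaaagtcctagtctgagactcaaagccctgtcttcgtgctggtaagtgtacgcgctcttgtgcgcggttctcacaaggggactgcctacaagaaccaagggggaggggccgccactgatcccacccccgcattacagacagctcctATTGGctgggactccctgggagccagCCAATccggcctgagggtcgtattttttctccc

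The somatic promoters held more CpG dinucleotides than the testis forms. Cycs had 32 CpG in 300 bases against 8 for Cyct, and Cox6b1 had 17 against 10 for Cox6b2, while the median over 32851 promoters was 7. The NRF1 motif (CGCATGNGC), present in 2.46% of all promoters, was found in Cycs at -61 from the start and in Cox5b at -50. The cyclic AMP response motif (TGACGTCA, 1.79% of promoters) was found in Cycs at -169. The ETS motif (CGGAAG, 16.9%) occurred 2 times each in Cox6b1, Cox5b and Cox8a. The CCAAT box (CCAAT, 37.4%) occurred 3 times each in Cox6b1 and Cox6b2, 2 times in Cox7b and 1 time each in Cycs, Cyct and Cox8a. The YY1 motif (AANATGGC, 6.05%) was found in Cox7b and the E2F motif (GCGGGAA, 4.6%) in Cox5b, and the E box (CACGTG, 7.15%) in none of the 7. A match describes these letters and not a bound site.

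Genes are located in GRCm38.p6 with Cycs at chr6:50562563-50566569, Cyct at chr2:76353942-76360453, Cox6b1 at chr7:30616971-30626114 and Cox6b2 at chr7:4751792-4753094. Cox5b is at chr1:36691487-36693388, Cox6c at chr15:35931976-35938246, Cox8a at chr19:7215158-7217616, and Cox7b is X-linked at chrX:106015700-106022450. All 8 are protein-coding, and no other gene of the annotation overlaps them. Cycs has processed pseudogenes elsewhere in the genome, and the handling of reads shared with such copies is not stated in the sources, so its level is uncertain by that amount.

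Some libraries stood apart from their labels or their group. The level unit is FPKM, fragments per kilobase of transcript scaled to the mapped fragments of the library, which keeps no record of depth. The WT ICM libraries had 5110 to 5718 genes at 1 FPKM or more and the KO ICM libraries 3628 to 5136, of which KO ICM 1, 4 and 6 had the fewest (3628, 3642 and 3883). The E5.5 libraries had 5457 to 5895. The KO libraries labelled E5.5 epiblast held trophectoderm markers at a summed 1138 to 2383 FPKM (8 of 10 markers in the table) against 75.5 to 120 FPKM in WT, with 7 of 7 tested markers higher. Extraembryonic ectoderm markers (3 of 5 in the table) summed to 32.9 to 39.1 FPKM in them and to at most 0.0903 FPKM in WT, where Cdx2 was listed at 0 throughout. Of these markers, Elf5 and Cdx2 also stand in the trophectoderm list, and Esrrb in the epiblast and ICM list. Elf5 made up most of the sum, at 30.1 to 33.4 FPKM, while Cdx2 ran from 0 to 3.21 FPKM in the KO libraries. Epiblast and ICM markers (9 of 10 in the table) summed to 48.9 to 134 FPKM in them against 393 to 438 FPKM in WT, and post-implantation epiblast markers (3 of 7) to 39.1 to 128 FPKM against 416 to 491 FPKM. All 3 KO libraries are of this kind, so no E5.5 result could be given without them, and Rbbp5 itself is not analysed here. In the ICM the trophectoderm sum ran the other way, between 43.2 and 828 FPKM for WT and between 5.78 and 57.1 FPKM for KO. Epiblast and ICM markers there summed to 194 to 494 FPKM in WT (median 356) and 98.9 to 328 FPKM in KO (median 207), with 1 of 9 tested lower and none higher. In bulk libraries fewer cells of a type and less RNA per cell cannot be told apart.

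In the E3.5 ICM, 7 of the 8 genes rose in the knockout and Cyct did not pass the test. Of all 5443 genes tested, 28.3% were called, 3.44% higher and 24.9% lower, and the median change was -0.65 on the log2(FPKM + 1) scale, against a median of 1.08 over the 8 genes. Calls are adjusted p below 0.05 in limma, which fits each gene and borrows its variance from the others, with Benjamini-Hochberg adjustment over all genes tested. The KO range lay wholly above the WT range for 5 genes (Cox5b, Cox6b1, Cox6c, Cox7b and Cox8a), which held for 1.29% of all genes.

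Cycs, the somatic cytochrome c, ran from 111 to 196 FPKM in WT ICM (median 141) and from 170 to 444 FPKM in KO ICM (median 241). The groups overlapped through the highest WT library. Its log2 change was 0.78 (SE 0.21, limma adjusted p = 0.0126). Cyct ran from 23.3 to 50.1 FPKM in WT (median 29.3) and from 6.20 to 118 FPKM in KO (median 33.5), so that the KO libraries lay on both sides of the WT range. Its log2 change was -0.23 (SE 0.47, limma adjusted p = 0.730) as deposited, 0.28 after quantile normalization and 0.32 after median ratio scaling, so no direction can be given.

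**Figure D1:**
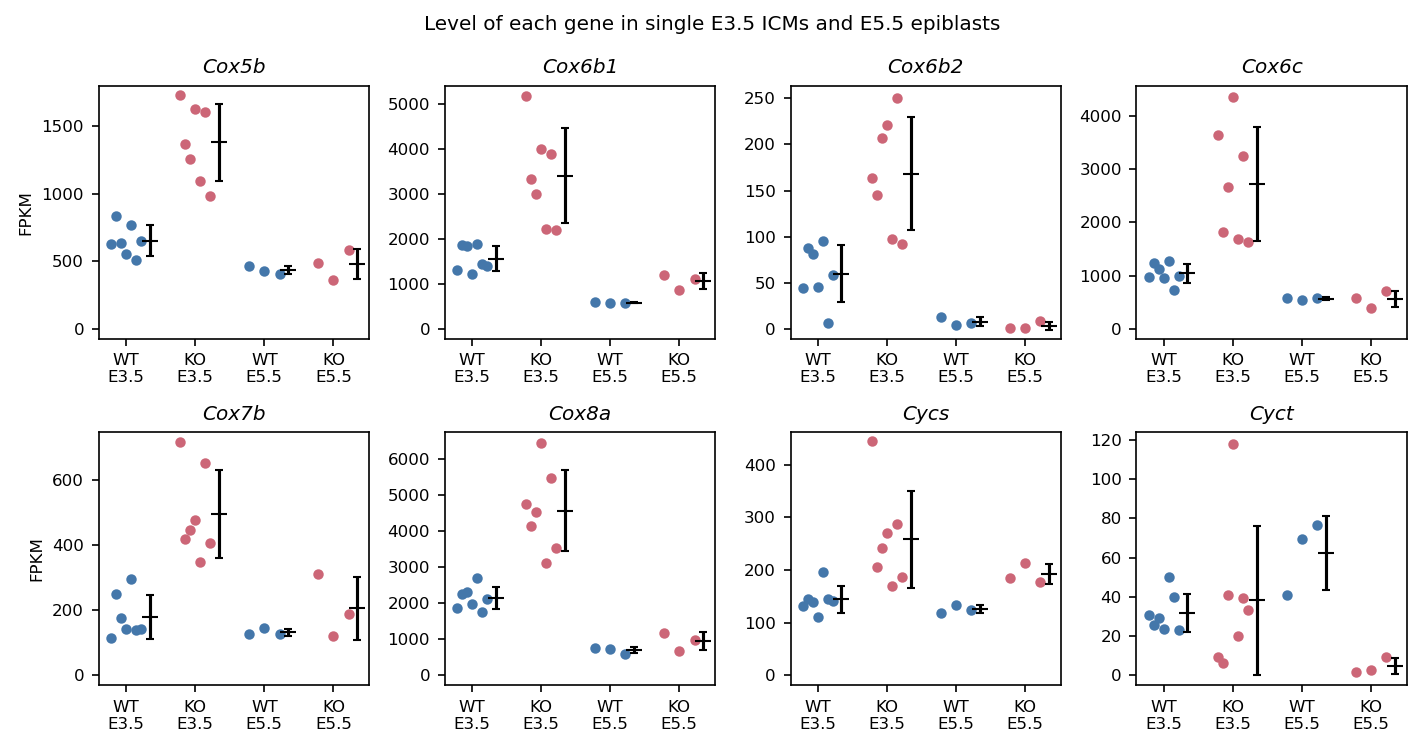
FPKM (linear axis) of each gene in single WT (blue) and KO (red) E3.5 ICMs and E5.5 epiblasts, 1 point per library; the dash and bar beside each group give mean ± SD (n = 7, 7, 3 and 3). All KO ICM libraries lie above all WT ICM libraries for Cox5b, Cox6b1, Cox6c, Cox7b and Cox8a, and the KO E5.5 libraries of Cyct (1.69 to 9.36 FPKM) lie below the WT ones (40.8 to 76.4 FPKM).

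Among the oxidase subunits, Cox6b1 ran from 1220 to 1873 FPKM in WT ICM (median 1439) and from 2191 to 5162 FPKM in KO ICM (median 3327). The groups did not overlap, and the log2 change was 1.08 (SE 0.18, limma adjusted p = 0.00222). Cox6b2, the testis form, ran from 6.83 to 95.2 FPKM in WT (median 58.5) and from 91.5 to 251 FPKM in KO (median 164). All 7 KO libraries were above the WT mean and 6 were above the highest WT library. Its log2 change of 1.70 (SE 0.44, limma adjusted p = 0.0112) had the widest error among the 7 that rose. It was the largest of the 8 with all libraries, but without WT ICM 6 it was 1.26, below Cox7b at 1.44.

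Cox7b rose by 1.49 on the log2 scale (SE 0.23, limma adjusted p = 0.00184), from 180 ± 67.0 FPKM in WT to 496 ± 136 FPKM in KO (SD, n = 7 each). Cox6c rose by 1.31 (SE 0.22, limma adjusted p = 0.00219), from 1041 ± 186 to 2723 ± 1074 FPKM. Cox5b rose by 1.07 (SE 0.16), from 654 ± 115 to 1381 ± 286 FPKM, and Cox8a by 1.07 (SE 0.15), from 2137 ± 313 to 4560 ± 1129 FPKM, each with a limma adjusted p of 0.00184. By mean FPKM, which is per length, Cox8a was the most abundant of the 8 in both groups and Cyct the least.

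The size of these changes moved with how many genes were detected. The 3 gene-poorest KO ICM libraries held the 3 highest values of Cox5b, Cox6b1, Cox6c, Cox7b, Cox8a and Cycs. Without them 5 of the 8 genes were called: Cox5b (0.85), Cox6b1 (0.78), Cox6c (0.90), Cox7b (1.24) and Cox8a (0.84), while Cox6b2 (1.40, limma adjusted p = 0.107) and Cycs (0.48, limma adjusted p = 0.106) were not. Of all genes 405 were then called, 77 higher and 328 lower, against 1540 with all libraries. With detected-gene number as a covariate, limma called none of the 8 and 0 of 5443 genes, with 5 of the 8 and 314 genes at an unadjusted p below 0.05. Detected-gene number itself goes with genotype (5110 to 5718 in WT, 3628 to 5136 in KO), so the 2 cannot be told apart by this covariate. In that fit the changes were 0.43 to 1.11 for the 6 oxidase subunits, 0.16 for Cycs and -0.90 for Cyct. Quantile normalization left 7 genes called, with changes of 0.50 for Cox6b1, 0.51 for Cox8a, 0.57 for Cox5b, 0.70 for Cox6c, 0.86 for Cycs, 1.44 for Cox7b and 1.95 for Cox6b2. It turned the split of all called genes from 187 higher and 1353 lower to 357 higher and 351 lower, and median ratio scaling turned it to 414 higher and 468 lower. All 7 genes stayed called with each of the 14 libraries left out in turn, the WT library with 828 FPKM of trophectoderm markers included. The part of the trophectoderm markers in these results was not otherwise tested, and that of the epiblast and ICM markers was not tested.

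**Figure D2:**
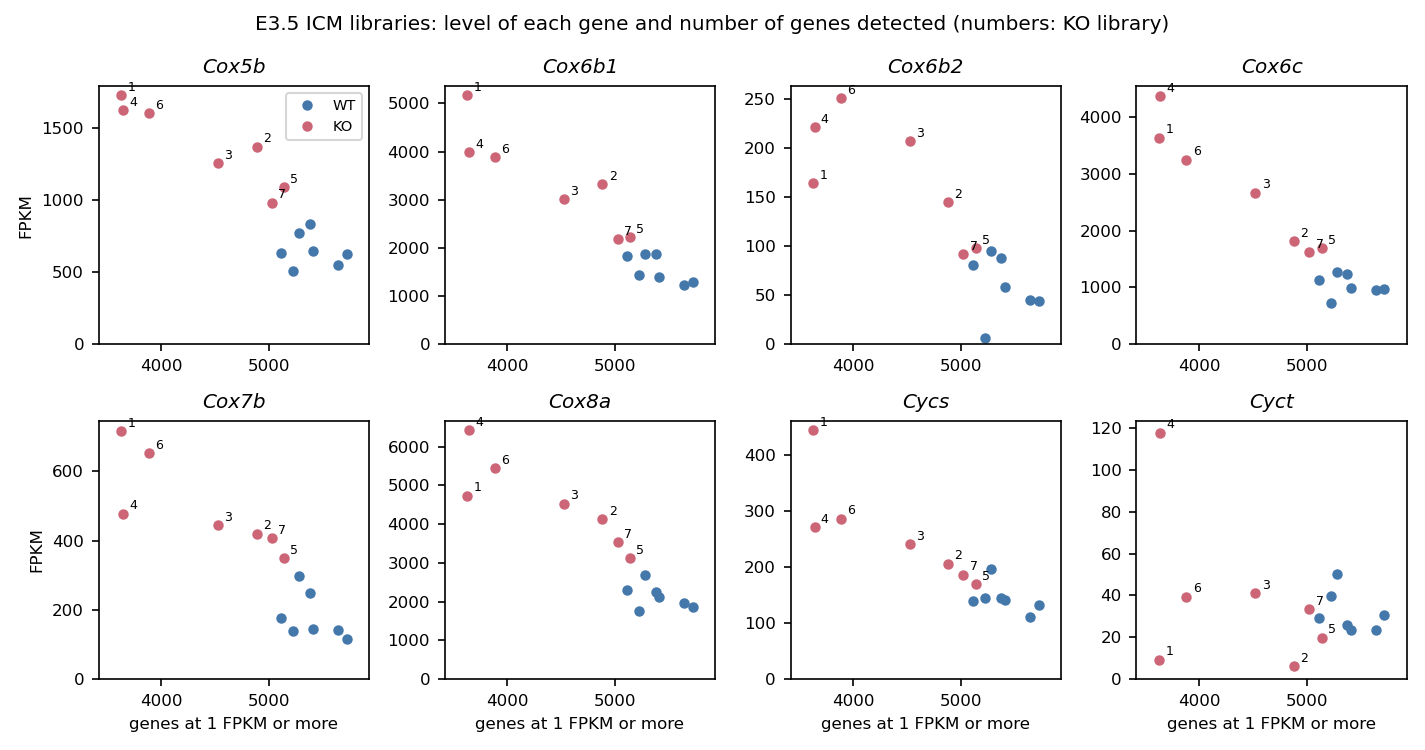
FPKM of each gene (vertical) against the genes detected at 1 FPKM or more (horizontal) in the 7 WT (blue) and 7 KO (red, numbered) E3.5 ICM libraries. KO 1, 4 and 6, with 3628 to 3883 genes, hold the 3 highest Cox5b and Cycs levels, while Cyct in those libraries ranges from 9.34 to 118 FPKM.

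At E5.5 the 2 cytochrome c genes moved in opposite directions: Cyct fell and Cycs rose in the KO libraries. Cox6b1 also rose, and the other 5 genes did not pass the test. Of 5956 genes tested, 34.1% were called, 15.6% higher and 18.5% lower, so 3 of 8 is near the background. In 3 of the 8 (Cyct, Cycs and Cox6b1) the groups did not overlap, which held for 49.2% of all genes.

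Cyct stood at 40.8, 69.7 and 76.4 FPKM in the 3 WT epiblasts and at 1.69, 2.75 and 9.36 FPKM in the 3 KO libraries. The highest KO library was below the lowest WT library. The log2 change was -3.70 (SE 0.48, limma adjusted p = 0.000785), and it was -4.27 to -3.29 with any 1 of the 6 libraries left out. Cycs stood at 118, 133 and 125 FPKM in WT and at 186, 213 and 178 FPKM in KO, again without overlap. Its log2 change was 0.61 (SE 0.15, limma adjusted p = 0.0127). The Cycs call was lost without WT 1 (0.57, limma adjusted p = 0.0642), with the sex covariate (0.64, limma adjusted p = 0.0800) and with the 4 embryo groups in 1 fit (0.61, limma adjusted p = 0.202).

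Cox6b1 stood at 596, 569 and 570 FPKM in WT and at 1191, 864 and 1117 FPKM in KO. The log2 change was 0.86 (SE 0.15, limma adjusted p = 0.00219) and the groups did not overlap. Its testis counterpart Cox6b2 stood at 13.1, 4.04 and 6.47 FPKM in WT and at 0.638, 1.15 and 8.18 FPKM in KO. The third KO library lay inside the WT range, and the change of -1.35 (SE 0.65, limma adjusted p = 0.145) was not called. Without KO 3 it was called at -2.11 (limma adjusted p = 0.00371).

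The other subunits gave smaller differences at E5.5. Cox7b stood at 133 ± 11.2 FPKM in WT and 206 ± 96.5 FPKM in KO (SD, n = 3 each; change 0.53, limma adjusted p = 0.188), and Cox8a at 693 ± 82.6 and 946 ± 247 FPKM (0.42, limma adjusted p = 0.130). Without KO 2, Cox7b was called at 0.86 (limma adjusted p = 0.0150) and Cox8a at 0.64 (limma adjusted p = 0.0118). Cox5b stood at 433 ± 29.8 and 479 ± 112 FPKM (0.12, limma adjusted p = 0.642) and Cox6c at 567 ± 24.9 and 565 ± 155 FPKM (-0.04, limma adjusted p = 0.885). All E5.5 differences go together with the trophectoderm, extraembryonic ectoderm and epiblast markers given above, whose part in them was not tested.

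**Figure D3:**
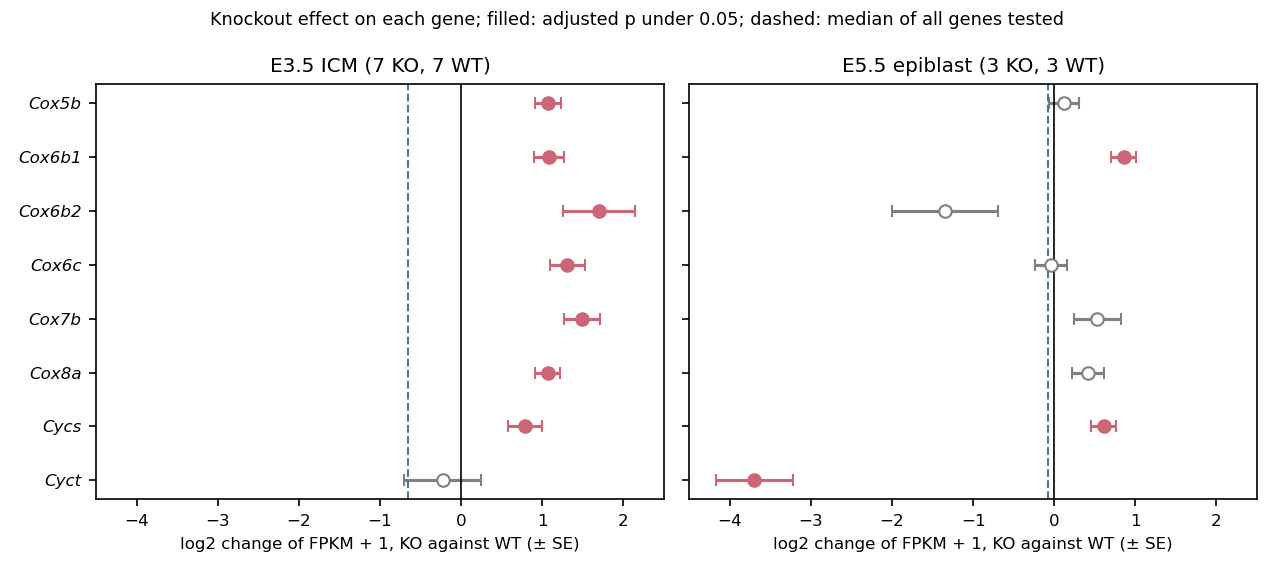
Log2 change of FPKM + 1, KO against WT (horizontal, ± SE), for each gene in E3.5 ICM (7 against 7) and E5.5 epiblast (3 against 3). Filled points are called at adjusted p below 0.05 and the dashed line is the median of all genes tested; 7 points in the ICM lie between 0.78 and 1.70 while the median is -0.65, and at E5.5 Cyct stands at -3.70.

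The knockout effect differed between the stages for 4 of the 8 genes, each with a lower effect at E5.5: Cyct by -3.47 (SE 0.85, limma adjusted p = 0.00850), Cox6b2 by -3.05 (SE 0.87, limma adjusted p = 0.0218), Cox6c by -1.35 (SE 0.38, limma adjusted p = 0.0191) and Cox5b by -0.95 (SE 0.28, limma adjusted p = 0.0246). The E5.5 side of each difference rests on the 3 KO libraries with high trophectoderm and low epiblast markers. The part of those markers was not tested. Tissue isolation also differed between the stages, and its effect cannot be told apart from that of stage. Of all 5917 genes tested, 14.0% were called, 10.6% with a higher and 3.38% with a lower effect at E5.5, and the median difference was 0.56. Cox7b (-0.96, limma adjusted p = 0.131), Cox8a (-0.65, limma adjusted p = 0.123), Cox6b1 (-0.23, limma adjusted p = 0.658) and Cycs (-0.18, limma adjusted p = 0.759) were not called. Cyct was called with each of the 20 libraries left out in turn (limma adjusted p at most 0.0435). Without WT E5.5 1 or without KO E5.5 2, Cyct alone of the 8 was called. Cox6b2 and Cox5b were also lost without KO E5.5 1, and Cox5b was lost without WT E5.5 2. Quantile normalization ended the Cox5b call (-0.40, limma adjusted p = 0.240). Without the 3 gene-poorest KO ICM libraries, 2 of the 8 were called, Cyct and Cox6c, and 864 genes in all, 594 with a higher and 270 with a lower effect. With detected-gene number as a covariate 0 of the 8 were called, with Cyct at -3.01 (limma adjusted p = 0.0513), while 4 of the 8 were at an unadjusted p below 0.05 and 446 genes in all were called. In the ICM that number goes with genotype, and there they cannot be told apart.

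From E3.5 to E5.5 in WT embryos, 5 oxidase subunits fell and Cyct rose. Of 6022 genes tested, 56.3% were called, 37.3% higher and 18.9% lower, with a median change of 0.43. The stages also differ in how the tissue was isolated, and the effects of stage and isolation cannot be told apart. Cox6b2 fell by 2.59 on the log2 scale (SE 0.63), Cox8a by 1.62 (SE 0.14), Cox6b1 by 1.41 (SE 0.16), Cox6c by 0.86 (SE 0.16) and Cox5b by 0.58 (SE 0.16), with limma adjusted p at most 0.00822. Cyct went from 31.8 ± 9.85 FPKM (SD, n = 7) to 62.3 ± 18.9 FPKM (SD, n = 3), a log2 change of 0.95 (SE 0.28, limma adjusted p = 0.0105). The Cyct call was lost without WT E5.5 2 or 3 and under median ratio scaling (0.56, limma adjusted p = 0.132). With the 4 embryo groups in 1 fit, 5 of the followed genes were at an unadjusted limma p below 0.05, against 6 in the main fit. Not every call therefore held in that fit, and the Cyct call may be among those lost. Cycs changed by -0.18 (limma adjusted p = 0.396) and Cox7b by -0.37 (limma adjusted p = 0.250).

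In the knockout libraries 7 of the 8 fell between the stages, Cyct among them. Of 5604 genes tested, 48.5% were called, 39.8% higher and 8.67% lower, with a median change of 1.08. Cox6b2 fell by 5.64 (SE 0.51), Cyct by 2.53 (SE 0.75), Cox8a by 2.27 (SE 0.23), Cox6c by 2.21 (SE 0.32), Cox6b1 by 1.64 (SE 0.25), Cox5b by 1.53 (SE 0.22) and Cox7b by 1.32 (SE 0.30), with limma adjusted p at most 0.0141. The same 7 were called without the 3 gene-poorest KO ICM libraries, where 3014 genes in all were called, 2307 higher and 707 lower. The Cyct call was lost without KO E5.5 1 or 2. The E5.5 side rests on the 3 libraries with trophectoderm markers described above. Cycs changed by -0.36 (limma adjusted p = 0.305) and was the member that was called in neither genotype, though median ratio scaling called it in both, at -0.57 in WT (limma adjusted p = 0.0384) and -1.26 in KO (limma adjusted p = 0.0365).

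The order of the 4 embryo groups by mean FPKM was not the same for all genes. KO ICM was the highest group for 7 of the 8. It was followed by WT ICM, KO E5.5 and WT E5.5 for Cox5b, Cox6b1 and Cox8a. Each neighbouring pair was separate for Cox6b1 (3398, 1561, 1057 and 578 FPKM), while the E5.5 groups overlapped for Cox5b and Cox8a and KO E5.5 also overlapped WT ICM for Cox5b. For Cox6b2 and Cox6c the E5.5 groups came in the reverse order and overlapped each other. The upper steps overlapped as well for Cox6b2 and were separate for Cox6c. For Cox7b each neighbouring pair below KO ICM overlapped. For Cycs the order was KO ICM (258 FPKM), KO E5.5 (192 FPKM), WT ICM (144 FPKM) and WT E5.5 (125 FPKM), with each neighbouring pair overlapping. For Cyct it was WT E5.5 (62.3 FPKM), KO ICM (38.2 FPKM), WT ICM (31.8 FPKM) and KO E5.5 (4.60 FPKM), and the last step was the one without overlap.

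The balance of the forms was compared within each library, where the scaling between libraries largely drops out. Of 12 exact permutation tests, for 3 log2 ratios of FPKM + 1 in 4 comparisons, 5 were below 0.05 after adjustment over the 12. In WT the ratio of Cyct to Cycs was -2.18 ± 0.25 at E3.5 (SD, n = 7) and -1.05 ± 0.42 at E5.5 (SD, n = 3), a rise of 1.13 (two-sided exact permutation p = 0.0167, the smallest that 7 against 3 can give, adjusted p = 0.04). All 3 E5.5 libraries lay above all E3.5 libraries. In KO the same ratio was -3.19 ± 1.47 at E3.5 and -5.35 ± 1.09 at E5.5 (difference -2.17, exact permutation p = 0.0833, adjusted p = 0.146). Between the genotypes at E5.5 it differed by -4.31, with exact permutation p = 0.1, the smallest that 3 against 3 allows (adjusted p = 0.146), and the ranges did not overlap. In the ICM the genotypes differed by -1.01 (exact permutation p = 0.11, adjusted p = 0.146). Without KO ICM 4, the library with 118 FPKM of Cyct, that difference was -1.34 (exact permutation test, adjusted p = 0.0280), and without the 3 gene-poorest KO ICM libraries it was -1.04 (exact permutation test, adjusted p = 0.0485).

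The ratio of Cox6b2 to Cox6b1 fell in KO from -4.36 ± 0.39 at E3.5 (SD, n = 7) to -8.36 ± 1.31 at E5.5 (SD, n = 3), a difference of -4.0 (exact permutation p = 0.0167, adjusted p = 0.04). In WT it was -4.97 ± 1.14 and -6.16 ± 0.71 (difference -1.19, exact permutation p = 0.2, adjusted p = 0.218). WT ICM 6, at -7.52, was far below the other WT ICM libraries, and without it the WT difference was -1.61 (exact permutation test, adjusted p = 0.0476). That value comes from the smallest unadjusted p that the remaining libraries allow. The 0.0571 given below for other between-stage tests comes from the same unadjusted p, at another rank among the 12 tests. Between the genotypes the ratio differed by 0.62 in the ICM (exact permutation p = 0.154, adjusted p = 0.185) and by -2.20 at E5.5 without overlap (exact permutation p = 0.1, adjusted p = 0.146).

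Cycs was also set against the geometric mean of the 5 somatic subunits Cox5b, Cox6b1, Cox6c, Cox7b and Cox8a. In the ICM this log2 ratio was -2.52 ± 0.21 in WT and -2.94 ± 0.20 in KO (SD, n = 7 each), a difference of -0.42 (exact permutation p = 0.00466, adjusted p = 0.04), with 7 of 7 KO libraries below the WT mean. The ranges overlapped (-2.8 to -2.19 in WT, -3.17 to -2.52 in KO), and KO ICM 1, at -2.524, lay next to the WT mean. After quantile normalization, which rescales genes by their rank, the change of Cycs (0.86) was larger than that of each of the 5 but Cox7b (1.44), and the ratio was not tested on that scale. From E3.5 to E5.5 the ratio rose by 0.78 in WT and by 1.43 in KO (exact permutation p = 0.0167 and adjusted p = 0.04 for each, without overlap). At E5.5 the genotypes differed by 0.23 (exact permutation p = 0.8). The 4 between-stage ratio tests that passed gave adjusted p from 0.0571 to 0.133 with any 1 library left out (exact permutation test). Each time the unadjusted p was the smallest that the remaining libraries allow. These tests could therefore not pass, and they do not judge how stable the 4 results are. The 4 differences kept their direction with each library left out.

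**Figure D4:**
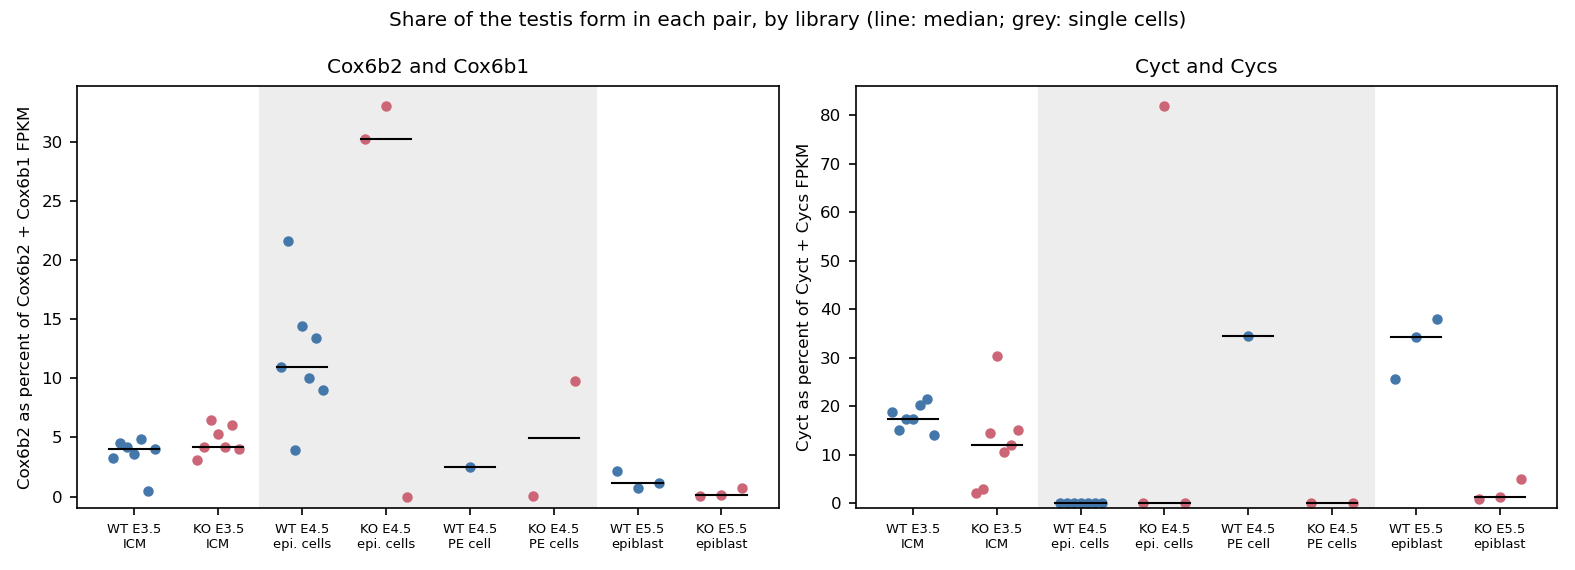
Share of the testis form in the summed FPKM of each pair (percent, vertical) in every library of the 8 groups; blue is WT, red is KO, the line is the median and the grey area holds the single cells, which were not compared with the embryo libraries. Cyct makes up 25.7% to 37.9% of the pair in WT E5.5 epiblasts and 0.902% to 5.01% in the KO libraries.

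As a share of the pair, Cyct made up 14.2% to 21.5% of cytochrome c FPKM for WT and 2.06% to 30.3% for KO ICMs. It made up 25.7%, 34.3% and 37.9% in the WT E5.5 epiblasts and 0.902%, 1.28% and 5.01% in the KO libraries. Cox6b2 was a minor form in all embryo libraries, at 0.473% to 4.84% of its pair in WT ICM, 3.08% to 6.45% in KO ICM, 0.706% to 2.15% in WT E5.5 and 0.0535% to 0.727% in KO E5.5.

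The E4.5 single cells gave values and no test, because the labels name no embryo for a cell and each group then counts as 1 sample. WT epiblast cells had 3878 to 4682 genes at 1 FPKM or more and KO epiblast cells 3026 to 3628. Cyct was listed at 0 in all 7 WT epiblast cells. It was listed at 0, 71.4 and 0 FPKM in the 3 KO epiblast cells, at 27.1 FPKM in the WT primitive endoderm cell and at 0 in both KO primitive endoderm cells. A 0 in a single cell can be a transcript that was not captured. Cycs was above 0 in every cell, from 23.3 to 87.1 FPKM in WT epiblast cells (median 44.7) and at 7.92, 15.8 and 67.9 FPKM in KO epiblast cells.

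Cox6b2 made up a median of 11.0% of its pair in WT epiblast cells (3.92% to 21.6%), and 30.3%, 33.1% and 0% in the KO cells. Cox8a ran from 618 to 1367 FPKM in WT epiblast cells and stood at 275, 518 and 452 FPKM in KO cells, all below the WT range. It was the single gene of the 8 without overlap, and 6.86% of 5872 genes had no overlap in this comparison, 3.99% with KO lower. Cox6c stood at 674, 560 and 427 FPKM in KO cells against 583 to 2272 FPKM in WT. Cox5b (48.5 to 427 FPKM), Cox6b1 (302 to 1764 FPKM) and Cox7b (118 to 164 FPKM) in KO cells overlapped the WT ranges. Trophectoderm markers summed to 135 to 334 FPKM in the KO epiblast cells and to 48.2 to 126 FPKM in the WT ones, and their part in these values was not tested. Primitive endoderm markers (10 of 10 in the table) summed to 2713 FPKM in the WT primitive endoderm cell and to 451 and 850 FPKM in the KO cells, and their part in the values of these cells was not tested. There Cycs stood at 51.6 FPKM in the WT cell and at 110 and 148 FPKM in the KO cells, and Cox8a at 1125 FPKM against 1615 and 2547 FPKM. Cox6b2 stood at 33.4 FPKM in the WT cell and at 0.962 and 121 FPKM in the KO cells.

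Other genes of the pathway, from fixed lists, were counted in the same fits. Of the 6 other oxidase subunits tested, 5 rose in the KO ICM and none fell (median 1.0), among them Cox7c (1.26), Cox7a2 (1.12), Cox7a1 (1.11), Cox6a1 (0.88) and Ndufa4 (0.84). None of the 6 was called at E5.5 (median -0.1), and 4 had a lower effect there than in the ICM, as had 3.38% of all genes. Cox7a1, a form best known from muscle, was at -2.10 (limma adjusted p = 0.0125). Of 15 assembly factors, 5 rose in the KO ICM and 2 fell (median -0.07). Among all genes 3.44% were higher and 24.9% lower in the KO ICM. The copper chaperone Cox17 rose by 0.90, Cox16 by 0.96, Higd1a by 1.16 and Higd2a by 0.70. Of 14 assembly factors tested at E5.5, 2 rose, Higd1a by 0.91 among them, and none fell, beside 15.6% of all genes higher and 18.5% lower.

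The list of cytochrome c partners and maturation factors, which also holds Etfdh, a donor to ubiquinone, went both ways in the KO ICM. Among its 8 genes 1 was higher and 3 lower (median -0.42), beside 3.44% of all genes higher and 24.9% lower. Uqcrh, the hinge protein of complex III, rose by 1.09, while Cyc1, its cytochrome c1, fell by 1.0, Etfdh by 1.95 and Suox, which passes electrons to cytochrome c, by 1.5. Of the genes that act in cytochrome c release and the apoptosome, 3 of 7 tested fell in the KO ICM: Bid by 1.98, Bcl2l1 by 1.60 and Diablo by 0.73. Their median of -0.73 is near that of all genes (-0.65), of which 24.9% were lower. At E5.5 4 of 7 were lower and 1 higher (median -0.90), with Bid at -2.13, the pore-former Bax at -1.67 (limma adjusted p = 0.00224), the survival gene Bcl2l1 at -1.37 and Bad at 1.08. Among all genes 18.5% were lower and 15.6% higher at E5.5, with a median of -0.07.

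Among the transcription factors known for respiratory genes, none of 6 rose in the KO ICM and 2 fell (median -0.74), beside 24.9% of all genes lower and a median of -0.65: Nrf1 by 1.54 (limma adjusted p = 0.0101) and Tfb2m by 1.04. At E5.5, 2 of 6 fell and 1 rose (median -0.43), beside 18.5% of all genes lower and 15.6% higher and a median of -0.07. Nrf1 fell by 1.0 (limma adjusted p = 0.0105), Tfam by 0.55 and Yy1 rose by 0.88. Of other testis forms of metabolic proteins, 1 of 12, Slc25a31, an ADP/ATP carrier, could be tested, at -0.42 in the ICM (limma adjusted p = 0.502) and -1.38 at E5.5 (limma adjusted p = 0.0239). It also stands among the germline genes, of which 3 of 7 tested fell in the KO ICM (median -0.82), and 4 of 8 fell and 1 rose at E5.5 (median -1.24). Among all genes 24.9% were lower in the KO ICM, and 18.5% were lower and 15.6% higher at E5.5. Tex19.1 was at -1.39 in the ICM and rose by 2.66 at E5.5, and Mael was at -1.91 and -1.86. None of the changes of these lists was tested as a set.

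The patterns of the genes over the 20 embryo libraries are described by Pearson correlations of log2(FPKM + 1), which share libraries and their scaling. Cox6b1 was most like Ndufb4 (r = 0.98), Myeov2 (r = 0.97) and Uqcr10 (r = 0.97) among 5912 genes searched, and Cycs was most like Ndufa12 (r = 0.94), Higd1a (r = 0.93) and Ndufc2 (r = 0.91). Cox6b2 was most like Psma1 (r = 0.95), Cox7a1 (r = 0.95) and Commd4 (r = 0.94). Cyct stood apart, with Sumo2 (r = 0.74), Hn1 (r = 0.73) and Nudt19 (r = 0.72) as its nearest genes and r from -0.22 (Cycs) to 0.37 (Cox6b2) with the other 7. Among those 7, r ran from 0.42, between Cox6b2 and Cycs, to 0.98, between Cox5b and Cox6c.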

How the data were processed

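Of the 46 samples, 33 are RNA libraries, made with SMART-seq2 and Tn5 per the labels' protocols. The deposited values are FPKM, in a table of 7186 lines. For 2 names there were repeated lines, and these 4 lines were left out. Their embryo columns were identical while their single-cell columns were not, so levels were not compared between these sets. The submitters' processing notes name the mm10 build, the aligners STAR 2.7.3, Bismark and Bowtie2 2.3.5, and also HOMER 4.10.4, MACS2 2.2.6 and Trim Galore 0.6.4, and do not say which of them served the RNA libraries. Depth is unknown, since FPKM keeps none: 971 of 187569 nonzero values were below 0.001 FPKM, which whole reads would not give.

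The test was limma 3.58.1 (R 4.3.3, robust empirical Bayes with a trend) on log2(FPKM + 1), for every gene whose mean in the compared embryo libraries reached 1 FPKM. P values were adjusted by Benjamini-Hochberg over all genes tested, with calls under 0.05. The pseudocount of 1 understates changes of low genes. Log2 ratios were tested with scipy 1.17.1 by exact two-sided permutation over libraries. A ratio test with libraries left out was adjusted together with the other tests of the 12 as run on all libraries. The labels say single embryo for each of the 20 ICM and E5.5 libraries and single cell for the 13 others. On simulated data the ICM fit recovered 14% and 18% of genes changed by 1 and -1 on the log2 scale and 88% and 82% of those changed by 2 and -2, with 5443 genes; at E5.5, with 5956 genes, it recovered 36% and 38%, and 84% and 80%. For the difference of effects, with 5917 genes, the shares were 0% and 0%, and 36% and 32%. In these simulations only a small part of the genes was changed, while 28.3% were called in the real ICM fit. Benjamini-Hochberg adjustment is stricter where fewer genes change, so these shares are not the power of the tests on the real data.

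The named genes are the 8 genes, up to 4 tested genes of each list with the smallest p in the ICM, the list genes called for the difference of effects, and the 3 genes most like each paired form. The genes and lists were chosen with earlier results of these data known. Other settings tried were a filter at 5 FPKM or none, a pseudocount of 0.1 or 5, scaling by median ratios, quantile normalization, a replicate block, a sex covariate from Y-linked genes, all 4 embryo groups in 1 fit, and each library left out in turn. Leaving out the 3 gene-poorest KO ICM libraries and the covariate for detected genes were added after seeing the data. Not analysed here were the 2 ATAC and 7 H3K4me3 libraries. The 4 methylomes were not used: of 813 positions listed, 0 lay within 5000 bases of one of the 8 genes.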

Additional observations from a re-analysis of the deposited data

Results flagged for a closer look

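Single libraries stood far from the rest of their group in 5 of 30 groups of values tested. The usual rate of about 1 in 20 by chance holds for independent, normally distributed values. Here the groups share libraries, the levels were taken as FPKM, and Cyct at 0 in all 7 WT epiblast cells could give no outlier. Whether 5 is more than chance gives was not tested. Cycs was highest in WT ICM 5 (196.3 FPKM), in KO ICM 1 (444.4 FPKM) and in WT E4.5 epiblast cell 3 (87.13 FPKM). Cyct was highest in KO ICM 4 (117.9 FPKM). The log2 ratio of Cox6b2 to Cox6b1 was lowest in WT ICM 6 (-7.52). The knockout effect differed between E5.5 and E3.5, by limma's test of the difference, for Cyct (-3.47), Cox6b2 (-3.05), Cox6c (-1.35) and Cox5b (-0.95). The E5.5 side of each difference rests on the 3 KO libraries with high trophectoderm markers, and the part of those markers was not tested.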

How the results depend on the processing

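The count of called genes in the KO ICM was 7 with any library left out and 0 with detected-gene number as a covariate, a number that itself goes with genotype in the ICM. At E5.5 the count of 3 became 2 to 5 with 1 library left out, and 2 with the sex covariate (Cycs 0.64, limma adjusted p = 0.0800) or with 4 groups in 1 fit (Cycs 0.61, limma adjusted p = 0.202). For the difference of effects the count of 4 became 1 with the replicate block, 2 without the 3 gene-poorest KO ICM libraries, 0 with the covariate of detected genes and 1 to 4 with 1 library left out. Between the stages it was 5 to 6 in WT and 6 to 7 in KO with 1 library left out, and Cox5b was not called in WT after quantile normalization (-0.32, limma adjusted p = 0.0713). With the 4 embryo groups in 1 fit, 5 of the followed genes were at an unadjusted limma p below 0.05 between the stages in WT, against 6 in the main fit. Replicate numbers do not pair the samples: deviations of same-numbered libraries had r from -0.13 to 0.16 in the ICM and from -0.02 to 0.12 at E5.5. Under the replicate block, limma adjusted p was 0.0732 for Cox5b, 0.0514 for Cox6b2 and 0.0501 for Cox6c in the difference of effects. The block changed no other call of the 8 genes.

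With 1 library left out the ratio differences ran, for Cox6b2 to Cox6b1, from -1.61 to -0.85 between stages in WT and from -4.72 to -3.43 in KO. For Cyct to Cycs they ran from 0.96 to 1.36 between stages in WT and from -1.34 to -0.64 in the KO ICM. For Cycs to the somatic subunits they ran from 0.73 to 0.85 in WT, from 1.14 to 1.59 in KO, and from -0.07 to 0.39 for the genotypes at E5.5, negative without KO 2. Without the 3 gene-poorest KO ICM libraries, the KO stage difference was -4.01 for Cox6b2 to Cox6b1 and 1.45 for Cycs to the subunits. For each the exact permutation test gave adjusted p = 0.137, from the smallest p that the remaining libraries allow, so neither could pass. The ICM difference for Cyct to Cycs was -1.04 without those 3 libraries.

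Differences that were not called changed sign as follows. Cyct in the ICM was 0.28 after quantile normalization, 0.32 after median ratio scaling, and -0.58 to 0.09 with 1 library left out (0.01 without KO 1, 0.09 without KO 2). At E5.5 Cox6c was 0.03 after median ratio scaling and -0.23 to 0.19 with 1 library left out (0.19 without KO 2), Cox7b was -0.13 with the sex covariate, and Cox5b was -0.04 to 0.31 with 1 library left out (-0.04 without KO 3). In the difference of effects Cox6b1 was 0.20 after quantile normalization, 0.08 without the 3 libraries and 0.30 with detected genes, and Cycs was 0.13 and 0.37 in the last 2. The cause was not tested.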
